A study of Mus musculus with 6 samples.

Results

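The 9 genes described here encode the mechanotransduction channel of the hair bundle and the tip link that opens it: Tmc1, Tmc2, Tmie, Lhfpl5, Cib2, Pcdh15, Cdh23, Tomt and Loxhd1. They, and the lists of other genes set beside them below, were chosen by name with earlier results of these data known. All 9 were found among the 24421 gene symbols of the count table. All 9 passed the filter on low counts that left 15988 genes for testing. The table held RNA-seq counts for 3 control and 3 neomycin samples of cochlear explants from mice whose cell type label reads WT, taken at postnatal day 2, each sample a pool of 6 to 8 cochleae. The explants were cultured for 12 h, the neomycin group received 1 mM neomycin, an aminoglycoside that kills hair cells (HCs), for 6 h, and culture went on for 5 days with 10 µM EdU, a thymidine analog that marks dividing cells. The sample labels print that same culture text for all 6 samples and tell the groups apart only by title and treatment, and control samples are treated here as cultures that got no neomycin. The strain, and whether samples of the same group came from separate litters or culture days, are not given in the sources used here, so p-values measure the spread between these pools. Before culture the tectorial membrane, modiolus and stria vascularis anlage were dissected away, and the samples still hold many cell types beside HCs.

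HCs carry a bundle of stereocilia in rows of rising height. A tip link runs from the top of each shorter stereocilium to its taller neighbour, with cadherin 23 forming the upper part and protocadherin 15 the lower part. Pulling on the link opens a channel at the lower end, whose pore is formed by TMC1 and, mainly in immature cochlear HCs, TMC2. The membrane proteins TMIE and LHFPL5 and the calcium-binding protein CIB2 belong to the same complex, TOMT is needed to bring the TMC proteins into the bundle, and LOXHD1 is a stereociliary protein needed for transduction in maturing HCs. Aminoglycosides such as neomycin enter HCs largely through this channel.

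Before the values, promoter sequences are given for 4 members that span the range of responses described later: the member with the lowest fold change (Tmc1), one in the middle (Lhfpl5), one with a small fall (Tmie) and the one that passed no test (Pcdh15). The sequences are RefSeq promoters on GRCm38.p6, which shares the coordinates of mm10, and run 5′ to 3′ on the gene's strand from 250 bases before the start site to 50 after it. Of the 9 members, 7 matched the RefSeq promoter table, Tomt with a second start site, and the RefSeq start of Pcdh15 lies inside the span that GENCODE gives the gene. Capitals mark matches, on either strand, to CAGATG or CAGCTG (E-boxes, the kind of site bound by basic helix-loop-helix factors such as ATOH1), ATTAAT (a site type of POU and other homeodomain factors) and GGAATG (the core bound by TEAD factors, the partners of YAP).
Tmc1, chr19:20954153-20954452, minus strand: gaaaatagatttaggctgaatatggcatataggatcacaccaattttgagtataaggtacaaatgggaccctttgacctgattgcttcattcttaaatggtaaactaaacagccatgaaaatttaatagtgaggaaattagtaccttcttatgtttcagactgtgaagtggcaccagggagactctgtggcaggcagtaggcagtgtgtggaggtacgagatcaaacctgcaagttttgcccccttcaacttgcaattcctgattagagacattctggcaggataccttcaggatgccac
Lhfpl5, chr17:28575469-28575768, plus strand: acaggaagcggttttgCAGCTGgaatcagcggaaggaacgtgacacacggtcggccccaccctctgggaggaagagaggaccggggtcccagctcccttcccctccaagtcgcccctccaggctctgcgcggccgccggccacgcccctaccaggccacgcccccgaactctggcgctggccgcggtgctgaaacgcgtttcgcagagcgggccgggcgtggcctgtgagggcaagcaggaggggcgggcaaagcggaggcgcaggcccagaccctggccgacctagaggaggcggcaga
Tmie, chr9:110880024-110880323, minus strand: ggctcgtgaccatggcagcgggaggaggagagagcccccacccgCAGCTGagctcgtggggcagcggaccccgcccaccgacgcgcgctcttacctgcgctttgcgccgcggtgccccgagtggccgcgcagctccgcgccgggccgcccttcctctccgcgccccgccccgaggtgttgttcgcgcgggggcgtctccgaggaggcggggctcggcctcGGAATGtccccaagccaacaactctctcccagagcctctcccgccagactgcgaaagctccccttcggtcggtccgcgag
Pcdh15, chr10:73821617-73821916, plus strand: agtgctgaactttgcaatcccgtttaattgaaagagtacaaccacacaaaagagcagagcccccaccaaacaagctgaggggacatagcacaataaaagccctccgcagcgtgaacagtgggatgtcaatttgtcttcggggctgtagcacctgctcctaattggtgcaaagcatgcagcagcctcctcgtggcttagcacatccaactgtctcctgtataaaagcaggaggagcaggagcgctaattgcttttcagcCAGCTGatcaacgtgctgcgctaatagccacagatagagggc
CAGCTG, which 16.3% of the 32851 promoters in the table hold, was found in Lhfpl5, Tmie and Pcdh15, at base -234, -206 and 9 from the start site. GGAATG, present in 14.7% of all promoters, was found in Tmie at base -30. CAGATG (17.2% of all promoters) and ATTAAT (4.75%) matched none of these 4 windows, and the Tmc1 window held none of the searched motifs. Lhfpl5, which fell, and Pcdh15, which passed no test, both held CAGCTG, and a match is given only as a description of these windows.

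After neomycin 8 of the 9 members were called lower and 0 higher, where a call needed both a Benjamini-Hochberg adjusted p below 0.05 in edgeR and a change of more than 1.5-fold. Of all genes tested, 6.60% were called lower, 2.24% higher and 8.84% in either direction. By the adjusted p alone the same 8 members were lower and 0 higher, against 16.1% and 12.9% of all genes tested. The median log2 fold change of the 9 was -1.63, against -0.0041 over all genes tested. The fall was unequal: Tmc1 kept 11.2% of its control level and Pcdh15 100.1%. For 8 members every neomycin sample lay below every control sample, a pattern seen in 22.5% of all genes tested, with 21.0% separate in the other direction and 0 members among them. Bulk RNA cannot tell fewer HCs from less RNA per HC, and it does not show which cells of the explant the RNA came from. Levels are given in CPM, a gene's read count relative to the TMM-scaled library size, unless stated otherwise.

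**Figure D1:**
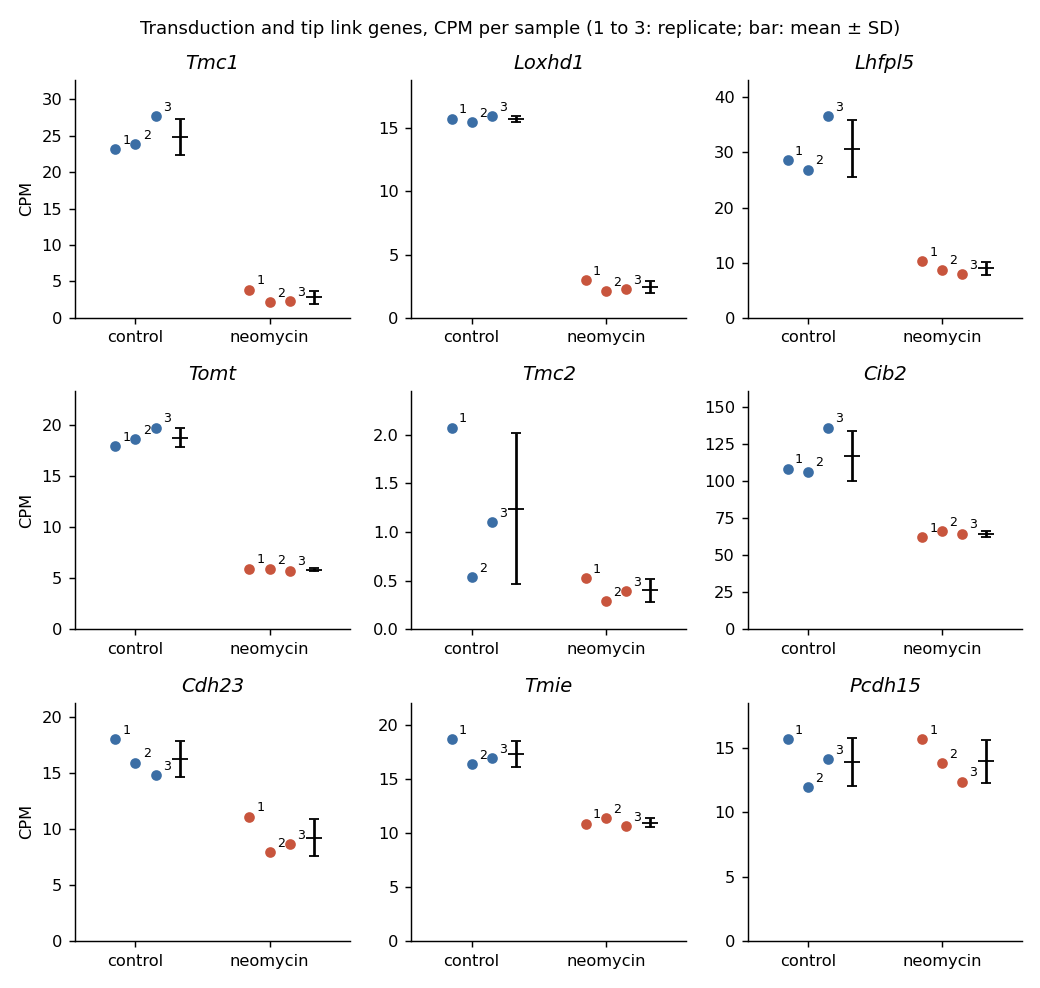
CPM (y axis, from 0, its own scale for each gene) of the 9 genes in each of 3 control and 3 neomycin samples, with replicate numbers beside the points and the mean ± SD as a bar. The groups are separate for 8 genes and overlap for Pcdh15, and the Tmc2 control samples are spread from 0.537 to 2.07 CPM.

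Among the pore subunits, Tmc1, on chromosome 19 of mm10 from 20783458 to 20954202 on the minus strand, had 23.1, 23.8 and 27.7 CPM in control replicates 1, 2 and 3, and the neomycin replicates, in the same order, had 3.88, 2.17 and 2.31 CPM. All neomycin samples lay far below the control samples, and neomycin replicate 1 was the highest of them. Tmc1 fell by 3.16 on the log2 scale (standard error, SE, 0.19, edgeR adjusted p = 3.91e-07), to 11.2% of control (95% interval 8.44% to 14.8%), the 24th lowest of the 15988 fold changes. Tmc2, on chromosome 2 from 130195194 to 130264445 on the plus strand, was the least abundant member, with 143, 28 and 62 counts in control and 28, 17 and 21 after treatment. Scaled to library size these were 2.07, 0.537 and 1.10 CPM in control and 0.527, 0.288 and 0.391 CPM after neomycin, so that control replicate 2 and neomycin replicate 1 nearly met. The log2 fold change of Tmc2 was -1.63 (SE 0.49, edgeR adjusted p = 0.0252), 32.2% of control with a wide interval of 15.5% to 66.9%. Without control replicate 1 it was -1.03 (adjusted p = 0.178), without neomycin replicate 2 it was -1.44 (adjusted p = 0.102) and without neomycin replicate 3 it was -1.62 (adjusted p = 0.0656), so the call rested on these libraries.

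TMC1 and TMC2 share the pore, and their transcripts were compared within each sample. Per read of Tmc1 there were 0.0899, 0.0229 and 0.0401 reads of Tmc2 in control replicates 1, 2 and 3, and 0.138, 0.136 and 0.173 in the neomycin replicates. The ratio was higher in every neomycin sample than in any control sample, 3.40-fold on average over log2 values (exact two-sided permutation test, p = 0.1, which is the lowest value possible with 3 samples a group). The SD of the log2 ratio was 0.99 in control and 0.19 after neomycin. In control the SD of Tmc2 was 62.8% of its mean and that of Tmc1 9.94%.

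Tomt and Loxhd1 are not pore subunits. Both fell, but less than Tmc1, and Loxhd1 lay closer to Tmc1 than Tomt did. Loxhd1, on chromosome 18 from 77281958 to 77442930, had the tightest control values of all members, 15.8, 15.5 and 15.96 CPM, against 2.98, 2.08 and 2.25 CPM after neomycin. The groups were far apart, again with neomycin replicate 1 the highest of its group. Loxhd1 fell by 2.69 on the log2 scale (SE 0.15, edgeR adjusted p = 2.10e-07), to 15.5% of control (95% interval 12.4% to 19.3%), rank 56 from the lowest. Tomt, which encodes a transmembrane O-methyltransferase-like protein, lies on chromosome 7 from 101898370 to 101906359. It had 17.9, 18.6 and 19.7 CPM in control and 5.93, 5.90 and 5.72 CPM after neomycin, the narrowest relative spread of any member after neomycin (SD 1.98% of the mean). The log2 fold change was -1.68 (SE 0.10, edgeR adjusted p = 5.98e-07), 31.2% of control (95% interval 26.7% to 36.5%). In the GENCODE annotation of this build, 69.3% of the exon bases of Tomt are also exon of Anapc15, a gene on the opposite strand, and the strand setting of the counting is not given in the sources used here. Anapc15 was counted at 17.7 ± 2.50 CPM in control and 13.3 ± 1.23 CPM after neomycin (SD, n = 3; fold change -0.42 in log2, edgeR adjusted p = 0.0221), so reads of the 2 genes may be mixed in either value.

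The membrane and calcium-binding partners of the channel differed among themselves. Lhfpl5, a tetraspan protein that couples the tip link to the channel, lies on chromosome 17 from 28575641 to 28585679. It had 28.6, 26.8 and 36.6 CPM in control and 10.2, 8.76 and 7.95 CPM after neomycin, with no overlap and control replicate 3 the highest. Its log2 fold change was -1.77 (SE 0.13, edgeR adjusted p = 3.13e-06), 29.3% of control (95% interval 23.97% to 35.8%). Tmie, on chromosome 9 from 110865711 to 110880113, had 18.7, 16.4 and 16.9 CPM in control and 10.9, 11.4 and 10.6 CPM after neomycin. The groups were separate and each was narrow, and the fold change was the smallest of the called members. Tmie fell by 0.66 on the log2 scale (SE 0.10, edgeR adjusted p = 0.000683), to 63.2% of control (95% interval 54.4% to 73.5%). Cib2, on chromosome 9 from 54544794 to 54560218, was the most abundant member, with 108, 106 and 136 CPM in control and 62.1, 66.1 and 64.6 CPM after neomycin. Its control replicate 3 stood above the other two, while the neomycin samples were close together. Cib2 fell by 0.86 on the log2 scale (SE 0.09, edgeR adjusted p = 5.90e-05), 54.9% of control (95% interval 47.8% to 63.2%). Genes on the opposite strand share 7.89% of the exon bases of Tmie (Als2cl, log2 fold change -0.44, adjusted p = 0.00601) and 15.8% of those of Cib2 (Sh2d7, -0.73, adjusted p = 0.00342).

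The tip link cadherins parted. Cdh23, on chromosome 10 from 60302748 to 60696490, had 17.98, 15.9 and 14.8 CPM in control and 11.1, 7.91 and 8.60 CPM after neomycin. Every neomycin sample lay below the control samples, and replicate 1 was the highest in both groups. Its log2 fold change was -0.82 (SE 0.14, edgeR adjusted p = 0.00123), 56.7% of control (95% interval 46.2% to 69.6%), while removing the trend on gene length left -0.56 (adjusted p = 0.00393), under the fold threshold. Pcdh15, on chromosome 10 from 73099342 to 74649737, had 15.7, 12.0 and 14.1 CPM in control and 15.7, 13.8 and 12.4 CPM after neomycin. The groups overlapped, and again replicate 1 was the highest in each. The log2 fold change of Pcdh15 was 0.0014 (SE 0.13, edgeR adjusted p = 0.995), 100.1% of control with a 95% interval of 82.9% to 121%, while removing the trend on gene length gave 0.29 (adjusted p = 0.108). Per read of Pcdh15 there were 1.15, 1.33 and 1.04 reads of Cdh23 in control replicates 1, 2 and 3, and 0.707, 0.573 and 0.695 in the neomycin replicates. This ratio was 1.78-fold lower after neomycin without overlap (exact two-sided permutation test, p = 0.1, the smallest possible).

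**Figure D2:**
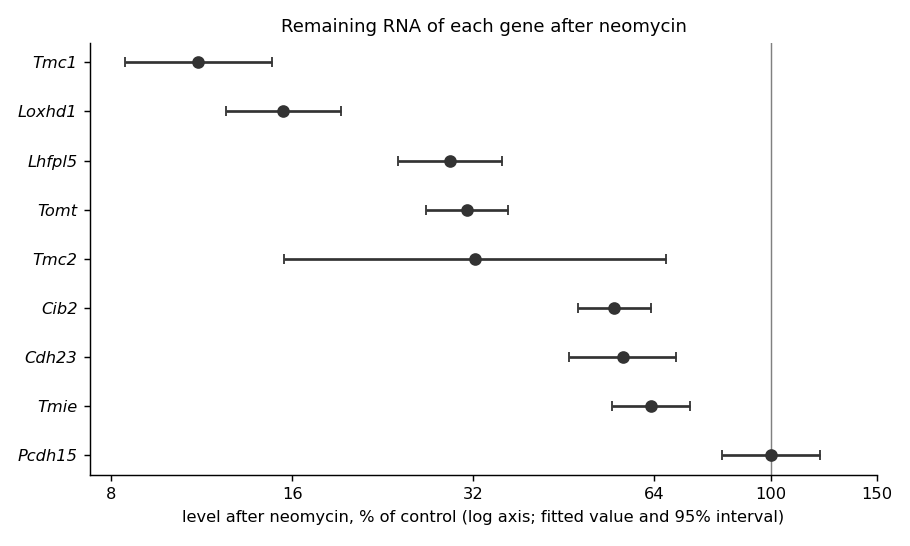
Level after neomycin as a percent of control (x axis, log scale) for each of the 9 genes, with the fitted value as a point and its 95% interval as a bar. Tmc1 and Loxhd1 lie lowest at 11.2% and 15.5%, Cib2, Cdh23 and Tmie lie between 54.9% and 63.2%, and the interval of Pcdh15 spans 100%.

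The unequal fall changed the makeup of the 9 transcripts. Ratios of 6 members to Tmc1 (Tmc2, Lhfpl5, Tmie, Cib2, Tomt and Loxhd1) and of Cdh23 to Pcdh15 were compared within samples, 7 in all, and for each the groups did not overlap (exact two-sided permutation test, p = 0.1, adjusted p = 0.1 over 7 ratios). The 6 ratios share Tmc1 as denominator and are not independent. Relative to Tmc1, Tmie was 5.82-fold and Cib2 5.08-fold higher after neomycin, and Loxhd1, the member closest to Tmc1, was 1.41-fold higher. The ratios depended on the value added before taking logs. The log2 differences of Tmie and Cib2 were 2.54 and 2.35 with 0.5 counts added, and 1.93 and 1.67 with 2 CPM added. Those of Lhfpl5 and Tomt went from 1.435 and 1.52 to 0.94 and 1.10, and that of Tmc2 from 1.76 to 2.10. The added 2 CPM exceeded every Tmc2 value but that of control replicate 1 (2.07 CPM), so the second Tmc2 figure mostly reflects Tmc1. Loxhd1 stayed at 0.50, and the log2 difference of Cdh23 to Pcdh15 went from -0.83 to -0.71. Tmc1 made up 9.31% to 10.1% of the summed CPM of the 9 members in control and 1.83% to 3.15% after neomycin, and Pcdh15 5.00% to 6.32% and 10.8% to 12.7%. The share of Pcdh15 was thus higher in every neomycin sample, while its own level passed no test.

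Per kilobase of exon, with all annotated exons of a gene merged, the control levels ran from Cib2 at 81.6 ± 11.6 CPM per kilobase through Lhfpl5 (12.9 ± 2.18), Tomt (6.56 ± 0.319), Tmie (5.61 ± 0.394), Tmc1 (3.46 ± 0.344), Loxhd1 (1.77 ± 0.0264), Cdh23 (0.957 ± 0.0965) and Pcdh15 (0.586 ± 0.0786) to Tmc2 (0.385 ± 0.241; SD, n = 3). Only the last 2 neighbours in this order, Pcdh15 and Tmc2, overlapped between samples. The length of Tomt includes the 69.3% of exon bases shared with Anapc15, where its reads may be mixed or left out, so its place is uncertain. After neomycin Cib2 stayed the highest at 44.8 ± 1.41 CPM per kilobase and Tmc2 the lowest at 0.125 ± 0.0373, Tmie passed Tomt (3.55 ± 0.126 against 2.05 ± 0.0406), and Tmc1 moved from place 5 to place 7, at 0.387 ± 0.132. Pcdh15 moved from place 8 to place 5, at 0.587 ± 0.0697, beside Cdh23 at 0.543 ± 0.0986. In the order after neomycin 4 pairs of neighbours overlapped between samples: Lhfpl5 and Tmie, Pcdh15 and Cdh23, Cdh23 and Tmc1, and Tmc1 and Loxhd1. Pcdh15 has 41 annotated transcripts, whose merged exons span 23773 bases, while the longest transcript has 9104. With the longest transcript as the length, chosen after the data were seen, Pcdh15 and Cdh23 changed places in control, at 1.53 ± 0.205 and 1.46 ± 0.147 CPM per kilobase with overlapping samples, and Tomt, Tmie and Tmc1 lay within 6.11 to 6.71.

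**Figure D3:**
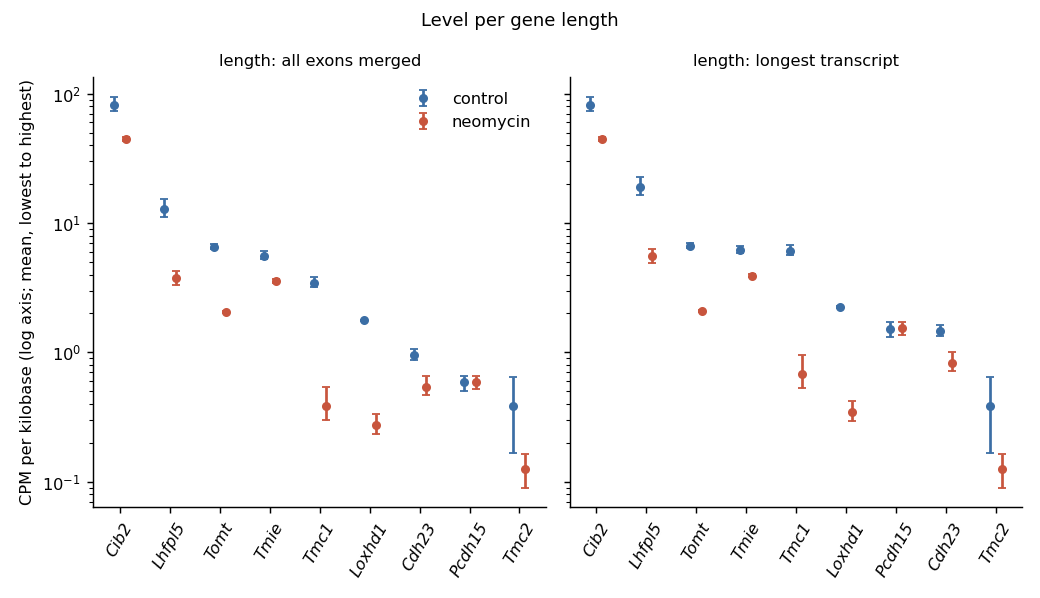
CPM per kilobase of gene length (y axis, log scale) in control and neomycin samples, with the mean as a point and the lowest to the highest sample as a bar, for merged exons (left) and the longest transcript (right). Under both lengths the means of Tmc1 and Loxhd1 lie above that of Pcdh15 in control and below it after neomycin.

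Within the groups the members did not share 1 order of the replicates. Among the neomycin samples, replicate 1 was the highest for 7 of the 9 members, replicate 2 for 2 and replicate 3 for 0. The same replicate was the highest for 11 of 14 genes of the HC body, a list of HC transcription factors, calcium-binding proteins, synaptic genes and receptors, and for 37.1% of all genes tested. The geometric mean of the 14 HC body genes was 8.90, 7.80 and 6.18 CPM in neomycin replicates 1, 2 and 3, against 26.2, 25.4 and 29.3 CPM in the control replicates. Among the control samples, replicate 3 was the highest for 5 members (Tmc1, Lhfpl5, Cib2, Tomt and Loxhd1) and for 9 of the 14 HC body genes, and replicate 1 for the other 4 members (Tmc2, Tmie, Pcdh15 and Cdh23) and 4 HC body genes. Over all genes tested, control replicate 3 was the highest for 36.5% and control replicate 1 for 34.8%. Without neomycin replicate 1, the fold change of every called member remained past both thresholds.

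The members were next set against this HC body level in the same sample, which asks whether a member fell more or less than HC genes at large. Tmc1 stood at 0.883, 0.937 and 0.945 times the HC body level in the control replicates and at 0.437, 0.279 and 0.375 times after treatment, a 2.58-fold lower ratio with no overlap. Loxhd1 was 1.82-fold lower relative to the HC body genes, also with no overlap. Lhfpl5 stood at 1.09, 1.06 and 1.25 in control and 1.15, 1.12 and 1.29 after neomycin, and the groups overlapped (1.05-fold, exact permutation p = 0.5). Tomt (1.12-fold higher, exact permutation p = 0.4) and Tmc2 (1.32-fold higher, exact permutation p = 0.6) overlapped as well. Cib2, Cdh23, Tmie and Pcdh15 were higher relative to the HC body genes in every neomycin sample, by 1.97-fold, 2.01-fold, 2.26-fold and 3.58-fold. For the 6 members with separate groups the exact two-sided permutation p was 0.1, the smallest possible, and 0.15 adjusted over the 9 members. The HC body genes fell unequally themselves, so these ratios depend on the list. How much RNA of each gene came from cells other than HCs was not tested. Against the 20 hair bundle partners described next, the log2 ratios of Lhfpl5 and Tomt differed by -0.45 and -0.36. Their adjusted p was 0.129 each (exact permutation test), the lowest among the 9 members with that reference. The log2 ratio of Cib2 differed by 0.46 and did not reach that value (exact permutation test, adjusted p = 0.225).

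**Figure D4:**
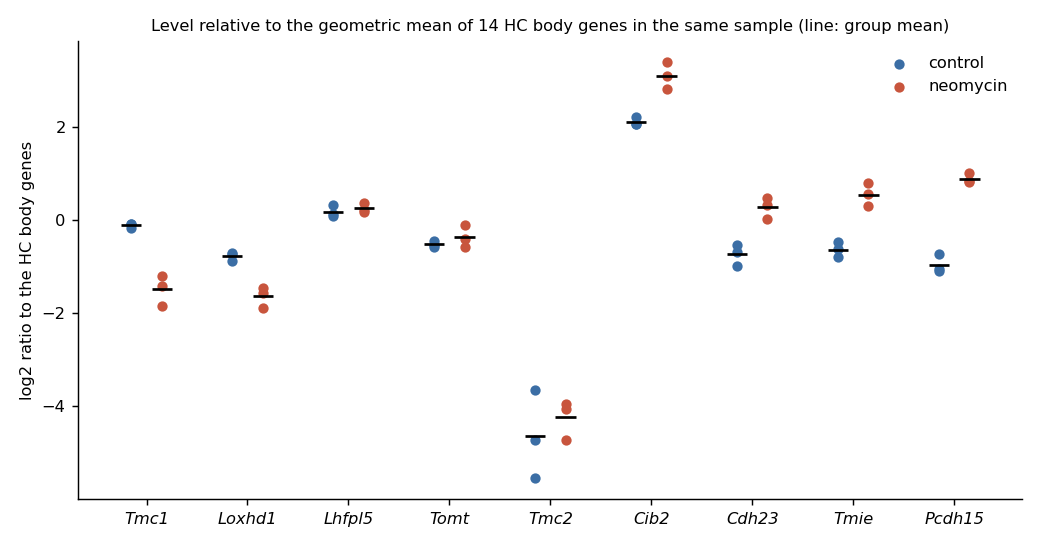
log2 ratio of each member to the geometric mean of 14 HC body genes in the same sample (y axis), with 1 point per sample and a line at the group mean. Tmc1 and Loxhd1 shift down after neomycin, Lhfpl5, Tomt and Tmc2 overlap, and Cib2, Cdh23, Tmie and Pcdh15 shift up.

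Of 20 other genes of the hair bundle, which build the anchors of the tip link, the ankle links and the actin core, 13 were called lower and 0 higher, with a median log2 fold change of -1.23. The largest falls called were those of Myo3a, a motor of stereocilia tips (-3.34, edgeR adjusted p = 0.000316), at 1.25 ± 0.226 CPM in control, Strc, which encodes stereocilin of the horizontal top connectors (-3.11, adjusted p = 3.43e-08), and Myo15, the motor that carries elongation factors to the tips (-2.36, adjusted p = 2.00e-05). The partners that anchor the upper end of the tip link, singled out here after their values were seen, also differed among themselves. Myo7a, the motor of this anchor, fell from 27.2 ± 4.86 to 12.3 ± 1.20 CPM (SD, n = 3; log2 fold change -1.14, edgeR adjusted p = 7.94e-05), and the scaffold gene Ush1g from 1.82 ± 0.166 to 0.974 ± 0.228 CPM (-0.90, adjusted p = 0.0331). Ush1c, the gene of the scaffold harmonin, had 115 ± 8.73 CPM in control and 129.9 ± 7.64 CPM after neomycin (0.18, adjusted p = 0.110), and was the only one of the 20 with a positive fold change. Eps8, which encodes an actin regulator of stereocilia tips, was at -0.062 (adjusted p = 0.682). Of the HC body genes 12 of 14 were called lower, with a median of -1.76, and the largest falls were those of Slc26a5 (prestin, the outer HC motor, -3.99), Ocm (oncomodulin, a calcium buffer of outer HCs, -3.40) and Chrna9 (a subunit of the efferent receptor, -2.70). Tmc1 (-3.16) lay between Ocm and Chrna9, Loxhd1 (-2.69) lay beside Chrna9, and Cib2 and Cdh23 lay near Calb2 (calretinin, -0.84) and Slc17a8 (the inner HC glutamate transporter, -0.88), a neighbourhood picked out after the values were seen. Otof, another synaptic gene of the list, fell further than Slc17a8 (-2.34, edgeR adjusted p = 2.05e-07). The remaining HC body genes were Atoh1, the HC-inducing factor, with 2.32 ± 0.133 and 2.24 ± 0.380 CPM (-0.046, adjusted p = 0.901), and Myo6 (-0.36, adjusted p = 0.00865), under the fold threshold.

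The relatives of the members outside the complex gave another picture. Of 15 paralogs, among them Tmc3 to Tmc8 and the other LHFPL and CIB genes, 13 were tested, 1 was called lower and 0 higher, and the median log2 fold change was -0.063. The 1 called was Lhfpl4, whose product clusters GABA-A receptors at inhibitory synapses and which is close kin to Lhfpl5. It fell from 9.26 ± 0.556 to 1.91 ± 0.373 CPM (SD, n = 3), by 2.27 on the log2 scale (SE 0.17, edgeR adjusted p = 3.43e-06). Tmc4, Tmc6 and Tmc7, the most abundant other TMC genes at 33.4, 29.2 and 8.84 CPM in control, had log2 fold changes of -0.021, 0.0082 and -0.063. Cib1, the nearest relative of Cib2 by name, had 58.7 ± 3.85 CPM in control and 70.4 ± 4.93 CPM after neomycin (0.26, adjusted p = 0.0252), below the fold threshold. Cib3, which can stand in for Cib2 in vestibular HCs, had at most 1 count in any sample and was not tested.

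**Figure D5:**
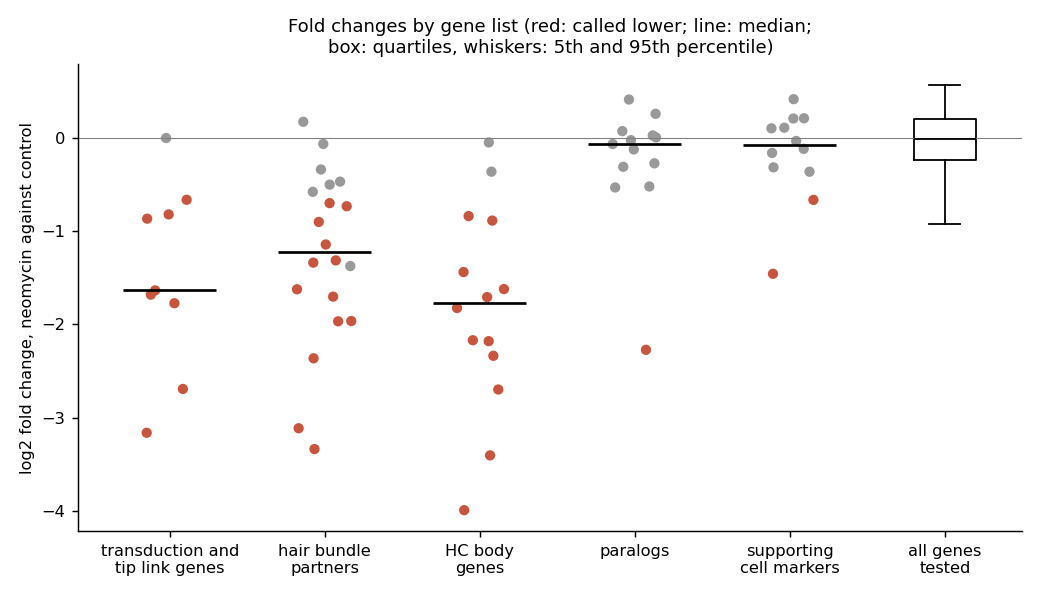
log2 fold changes of neomycin against control (y axis) for single genes in 5 lists, red where called lower and grey otherwise, with the median as a line, beside a box of all 15988 genes tested (quartiles, whiskers at the 5th and 95th percentile). The 9 members, with a median of -1.63, lie with the hair bundle partners (-1.23) and the HC body genes (-1.76), and the paralogs (-0.063) and supporting cell markers (-0.072) lie near 0.

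Genes were sought whose values lay nearest the median of the 9 members in each sample. The measure was the Euclidean distance over the 6 samples between that median and a gene's log2 CPM relative to its control mean. The search ran among 14028 genes of at least 1 CPM on average. The nearest were Camk2b (a calcium/calmodulin kinase subunit), Brsk2, Fanca, Nr4a3, B3gnt4, Zfp551, Dlg2 (a synaptic scaffold), Baiap2l2 (a stereociliary membrane-bending protein), Tmem255b and Celsr3. Their distances ran from 0.273 to 0.397 and their log2 fold changes from -1.53 to -1.21. No member lay in that range, the nearest on either side being Tmc2 (-1.63) and Cib2 (-0.86). These genes thus lay near the middle of the members, as the search was built to find. With 9 members the median in a sample is the value of 1 of them. The median fold change (-1.63) was that of Tmc2, the least abundant member. Whether the genes followed a single member was not tested. None of the 10 was on another list used here.

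Markers of other cell types moved as well, and their part in these results was not tested. The 12 supporting cell markers summed to 1806 to 1844 CPM in control and 1793 to 1969 CPM after neomycin, with 2 called lower (Fgfr3 and Prox1) and 0 higher. Of 6 endothelial markers (277 to 307 CPM in control, 266 to 317 after treatment) 4 were called lower. These were Pecam1, Cdh5, Flt1 and Kdr, with log2 fold changes of -2.71, -2.05, -1.835 and -0.96. Most of the endothelial sum was Emcn, which was not called, at 252 ± 12.1 CPM in control and 273 ± 26.2 CPM after neomycin. Of 7 neuronal markers (188 to 266 and 172 to 193) 4 were called lower, and 2 of 8 macrophage markers (68.3 to 86.8 and 89.6 to 115) higher. Over all genes tested 6.60% were called lower and 2.24% higher. Of the 6 Schwann cell and glial markers (191 to 252 and 174 to 202 CPM) 1 was called lower, and of the 8 mesenchymal markers 1 was called lower and 1 higher. The mesenchymal markers were the most abundant, at 5877 to 6423 CPM in control and 6300 to 6511 CPM after neomycin. No marker of any of these lists was at 0 in a group mean. Total counts per sample ran from 50471116 to 66068108, and replicates differed by more than sampling noise (mean chi-square per gene from 13.4 to 44.95 over pairs within a group), so that each library was counted once.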

How the data were processed

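The samples were 3 control and 3 neomycin pools of explants. Reads were processed by the authors with CASAVA 1.8 and Trimmomatic 0.23, mapped to UCSC mm10 by HISAT2 and assigned to the mm10 annotation by HTSeq, and the authors deposited raw counts per gene symbol. The strand setting and the rule for multi-mapping reads are not given in the sources used here. Total counts per sample were 50471116 to 66068108, and among the members Tmc2 had the fewest counts, 17 to 143 per sample.

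From the counts, genes were filtered with filterByExpr and libraries scaled by TMM in edgeR 4.0.16 (R 4.3.3), and groups were compared by its quasi-likelihood test (two-sided, Benjamini-Hochberg over 15988 genes). The study used DESeq2 with the same thresholds. Standard errors are the size of the log2 fold change over the root of F, and 95% intervals use the prior plus residual degrees of freedom of the fit. Ratios within samples had 0.5 counts added, or 2 CPM as an alternative for ratios between members. Lengths and positions came from GENCODE M21 (GRCm38). Lists are described by counts and medians, and 1 paralog that is counted there is not reported by name here. The named genes were all members, the called genes with the 3 largest falls and 2 largest rises of the hair bundle partners, HC body genes and paralogs, and the 10 nearest genes. Other genes were chosen after their values were seen. The members and lists were chosen with earlier results of these data known. The code was tested on simulated data. Alternatives were DESeq2 1.42.0, limma-voom (limma 3.58.1), other scalings, filters and thresholds, a gene length correction (lowess, span 0.3, with lengths for 99.2% of genes), a replicate block and each sample left out. Figures were drawn with matplotlib 3.10.9.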

Additional observations from a re-analysis of the deposited data

How the results depend on the processing

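Of 544 values recomputed under the alternatives, 508 were labelled the same. Member fold changes had to keep their direction and call, and ratios only their direction. Counts could move up to 1.5-fold, and medians and levels per length had to stay within the replicate spread. Part of this was fixed beforehand. A changed threshold cannot move a fold change or a median, and the replicate block cannot move a mean difference in log2 ratios. Tmc1, Loxhd1, Lhfpl5, Tomt, Cib2 and Tmie were called lower under all 17 alternatives. Tmc2 lost its call with limma-voom (-1.52, adjusted p = 0.0539) and at an adjusted p under 0.01 (-1.63), and it ranged from -1.98 to -1.03 with single samples left out, -1.03 being the value without control replicate 1. Cdh23 fell under the fold threshold after the length correction (-0.56). The near-zero log2 fold change of Pcdh15 turned negative with limma-voom (-0.0080), library size only (-0.066), no filter (-0.0014) and the 1 CPM filter (-0.00028), and ranged from -0.092 to 0.10 with single samples left out. With hair bundle partners as reference the log2 ratios of Tmc2, Lhfpl5 and Tomt turned to -0.12, -0.45 and -0.36, and leaving out single samples moved that of Tmc2 to the HC body genes between -0.051 (without control replicate 2) and 0.89. The causes were not tested.

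The median of the members was -1.27 under the 1 CPM filter, which drops Tmc2, and ranged from -1.69 to -1.03 with single samples left out (lowest without neomycin replicate 1, highest without control replicate 1), and that of the partners from -1.26 to -0.94. Genes called higher numbered 233 with library size only, which shifts the median of all genes to -0.073, 229 with the length correction and 217 at an adjusted p under 0.01, and ranged from 237 (without control replicate 2) to 513 with single samples left out. Without the fold threshold 4629 genes were called, 2058 higher and 2571 lower, with 2 paralogs lower and 1 higher, and 2 paralogs were lower with no filter. Whether the replicate numbers pair the samples could not be settled from these values. Correlations of same-numbered deviations were 0.165, 0.0264 and 0.0949, and those of the other pairs ran from -0.129 to 0.0325. Control replicate 2 correlated best with neomycin replicate 3. With the replicate block 1465 genes were called, and 8 members were lower. Counts were lowest for Tmc2 among the members (17 to 143), and other named genes were as shallow, such as Myo3a with at most 90 counts in a sample.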
